A study of Mus musculus with 48 samples.

Results

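The cell cycle and DNA replication genes described here are 40 mouse genes listed by symbol, 18 that act in DNA replication and 22 that act in mitosis. Each gene was represented by the array feature with the highest mean over all 48 arrays. All 18 replication genes and 21 of the 22 mitosis genes had a feature, so 39 of 20738 named genes on the array were members with a value. No feature of Ccnb1, the cyclin B1 gene, was named, and it was not analysed here. The 48 single-colour Agilent arrays held RNA from alveolar epithelial type II cells (AECII, the surfactant-producing cells of the lung) and pulmonary arterial smooth muscle cells (PASMC), both isolated from C57Bl/6J mice. The AECII were plated in DMEM with 10% serum and exposed from 24 h after isolation. The PASMC were passaged (passage 1) and kept in smooth muscle medium with 15% serum. Each cell type had 3 groups of 8 arrays: Ctrl, with the treatment label room air, 0mg and 18mg. The 0mg and 18mg cells received 15% of an extract of e-cigarette vapour (ECVE) for 24 h, made from a liquid with 0 or 18 mg/ml nicotine. The design text speaks of 8 mice, but the labels do not tie an array to a mouse, so the p-values measure the spread between these arrays. Cell type goes together with passage, medium and serum, which cannot be told apart from it.

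A cell that is about to divide first licenses its replication origins in G1. Cdc6 and Cdt1 load the ring-shaped MCM2 to MCM7 helicase onto DNA, and the helicase is switched on in S phase with Cdc45 and the GINS complex. The transcription factors of the E2F family drive many of these genes, whereas the mitotic genes peak later, in G2 and M, and are controlled by the DREAM and MuvB complexes through the cell cycle genes homology region (CHR) of their promoters. In adult lung, type II cells and arterial smooth muscle cells divide rarely, and both can enter the cycle in culture or after injury.

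Some promoters of the members hold the elements by which these 2 sets are usually told apart, and 6 are printed here because the results below turn on these genes. All the replication promoters printed hold an E2F match, which only 6 of 14 replication members with a listed promoter did. They are RefSeq sequences of build GRCm38.p6, each from 210 bases before to 20 bases after the annotated start, 5′ to 3′ on the strand of the gene. In the replication genes Cdc6 (chr11:98907941-98908170, plus strand), Mcm5 (chr8:75109299-75109528, plus strand) and Mcm6 (chr1:128359686-128359915, minus strand), capitals mark an E2F motif, searched as TTTGGCGC, TTTCCCGC, TTTCGCGC or TTTGCCGC on both strands. Neighbouring matches can overlap and then form a longer run of capitals. In the mitosis genes Ccnb2 (chr9:70421535-70421764), Mki67 (chr7:135716360-135716589) and Cdk1 (chr10:69352893-69353122), all on the minus strand, capitals mark a CHR motif (TTTGAA or TTTAAA) or CCAAT, again on both strands. The CCAAT matches of Mcm5 and Mcm6 and the E2F match of Cdk1 also lie in these windows and are not marked.
Cdc6: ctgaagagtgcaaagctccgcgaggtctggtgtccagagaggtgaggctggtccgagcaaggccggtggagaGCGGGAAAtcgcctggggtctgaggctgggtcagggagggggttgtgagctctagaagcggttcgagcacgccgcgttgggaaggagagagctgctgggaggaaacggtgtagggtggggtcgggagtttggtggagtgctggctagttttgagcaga
Mcm5: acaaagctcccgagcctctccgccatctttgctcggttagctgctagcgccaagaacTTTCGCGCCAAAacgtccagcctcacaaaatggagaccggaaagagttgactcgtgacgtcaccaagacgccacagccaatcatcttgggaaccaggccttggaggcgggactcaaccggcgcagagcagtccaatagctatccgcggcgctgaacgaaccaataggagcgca
Mcm6: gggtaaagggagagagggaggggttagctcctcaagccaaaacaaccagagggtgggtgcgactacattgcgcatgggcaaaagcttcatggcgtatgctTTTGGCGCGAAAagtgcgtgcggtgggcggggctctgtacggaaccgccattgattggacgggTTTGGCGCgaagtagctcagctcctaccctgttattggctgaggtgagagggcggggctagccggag
Ccnb2: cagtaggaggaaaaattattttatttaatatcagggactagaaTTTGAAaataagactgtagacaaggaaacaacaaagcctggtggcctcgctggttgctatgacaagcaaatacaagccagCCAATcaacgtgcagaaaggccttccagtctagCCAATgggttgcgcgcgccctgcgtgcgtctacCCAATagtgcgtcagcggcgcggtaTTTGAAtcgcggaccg
Mki67: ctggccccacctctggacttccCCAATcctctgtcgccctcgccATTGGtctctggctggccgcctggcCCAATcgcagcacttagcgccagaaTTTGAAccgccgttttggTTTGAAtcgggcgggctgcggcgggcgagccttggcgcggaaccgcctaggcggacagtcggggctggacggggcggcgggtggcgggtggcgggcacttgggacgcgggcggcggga
Cdk1: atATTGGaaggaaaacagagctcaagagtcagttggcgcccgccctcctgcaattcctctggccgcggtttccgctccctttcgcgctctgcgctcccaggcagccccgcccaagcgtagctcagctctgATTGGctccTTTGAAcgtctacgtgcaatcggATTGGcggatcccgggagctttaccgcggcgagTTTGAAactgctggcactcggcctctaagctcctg

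Promoters of 250 bases before to 50 bases after the start were listed for 14 of 18 replication members and 17 of 22 mitosis members. An E2F motif was present in 6 of 14 replication members (42.9%) and in 1 of 17 mitosis members (5.88%), Cdk1, against 3.36% of the 16416 genes of the array with a listed promoter. A CHR motif was present in 15 of 17 mitosis members (88.2%) and in 5 of 14 replication members (35.7%), against 27.3% of those genes. CCAAT was present in 15 of 17 mitosis members (88.2%) and in 9 of 14 replication members (64.3%), against 42.1%. CHR and CCAAT stood together in 14 of 17 mitosis members (82.4%) and 4 of 14 replication members (28.6%), against 12.4%. Bub1 and Nusap1 were the mitosis members without a CHR match in this window. A match of these short motifs is a description of the sequence and not a measured binding site.

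The labelled cell types were checked against their markers. Surfactant protein C, Sftpc, ran from 13.80 to 14.86 on the deposited log2 scale in the 24 AECII arrays, and 10 of 11 AECII markers tested were higher in control AECII than in control PASMC. The remaining marker tested, Etv5, was called lower in AECII, with means of 7.47 in control AECII and 9.73 in control PASMC. Slc34a2, also listed as an AECII marker, was too dim to be tested (means of 2.63 and 2.60). Smooth muscle actin, Acta2, ran from 14.33 to 15.46 in PASMC, and all 10 smooth muscle markers were higher there. Other cell types were visible in both cultures. In PASMC, Sftpc ran from 1.72 to 11.82, with 11 of 24 arrays above 6, and the macrophage receptor Marco from 7.24 to 13.07. The mean of the 9 macrophage markers ran from 4.84 to 9.02 in PASMC and from 5.86 to 8.22 in AECII, and the mean of the 5 mesothelial markers from 9.23 to 10.36 in AECII and from 2.81 to 4.64 in PASMC. All 9 fibroblast markers were higher in control PASMC than in control AECII, with means of 10.00 to 12.02 over the PASMC arrays and 6.66 to 7.78 over the AECII arrays. Among them, the collagen gene Col1a2 had medians of 15.30 and 12.05 in the control arrays, and Thy1 13.21 and 6.15. The club cell secretoglobin Scgb1a1 ran from 15.59 to 15.89 in the AECII arrays, near the top of the scale, and from 1.90 to 11.20 in PASMC, and 4 of 5 airway markers tested were higher in control AECII. The Acta2 level in AECII was 10.93 to 12.83. In such bulk RNA, fewer dividing cells and less of a transcript per dividing cell cannot be told apart. The correlation between arrays of one group was 0.973 or higher in AECII and 0.937 or higher in PASMC, the array medians lay between 2.97 and 2.98, and values near that median are called close to background here.

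Aurkb, the kinase of the chromosomal passenger complex, and Cenpf, a kinetochore protein, were too dim to be tested, with highest values of 3.22 and 3.86 in any array. Cyclin E2, Ccne2, reached 3.65 and passed the brightness filter only in the fit of the AECII arrays. This left 17 replication and 19 mitosis members where both cell types were compared. A gene counts as called where its adjusted p in limma was below 0.05, with Benjamini-Hochberg adjustment over all genes tested.

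The first comparison sets AECII against PASMC within each condition. In the control arrays, the replication machinery was higher in AECII: 11 of 17 replication members were called higher and 2 lower, with a median difference of 0.79 on the log2 scale. Of the 19 mitosis members 6 were higher and none lower, with a median difference of 0.29. Across all 14775 genes tested, 27.9% were called higher in AECII and 31.3% lower, and the median difference was -0.04. Calls in either direction were thus common among all genes, and 17 of the 19 members called were higher in AECII. Taken alone, the 6 of 19 mitosis members called higher are near the share of all genes called higher. Over the control groups, 10 replication members and 1 mitosis member lay wholly higher in AECII and 1 replication member wholly lower, where 13.3% of all genes tested lay wholly higher and 14.8% wholly lower. The 1 of 19 mitosis members is below that share of all genes.

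The origin-licensing factor Cdc6 differed most. Its log2 values were 6.09, 7.21 and 7.70 (lowest, median and highest of 8 arrays) in control AECII and 4.71, 5.62 and 5.94 in control PASMC. Every AECII array lay above every PASMC array, and the difference was 1.51 ± 0.22 (SE; 2.85-fold, adjusted p = 9.05e-08, limma). Cdt1, its partner in loading the helicase, was 0.98 ± 0.09 higher (1.98-fold, adjusted p = 1.13e-13, limma).

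The 6 helicase subunits of the list, Mcm2 to Mcm7, were all called higher in AECII, and none of them overlapped between the control groups. Mcm5 ran from 10.04 over a median of 10.38 to 10.49 in control AECII and from 8.55 over 9.08 to 9.62 in control PASMC, a difference of 1.25 ± 0.14 (2.37-fold, adjusted p = 7.74e-11, limma). Mcm2 ran from 9.10 over 9.42 to 9.73 against 8.02, 8.46 and 8.78, which is 1.00 ± 0.11 (2.00-fold, adjusted p = 6.52e-11, limma). For Mcm6 the values were 12.64, 12.86 and 13.09 against 11.43, 11.88 and 12.11, or 0.99 ± 0.10 (1.98-fold, adjusted p = 9.24e-12, limma). Mcm4 (0.96), Mcm3 (0.91) and Mcm7 (0.79) followed.

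Gins1, a subunit of the GINS complex that joins the active helicase, was higher as well, and its partner Gins2 was not. Gins1 ran from 7.87 over 8.08 to 8.74 in control AECII and from 6.35 over 7.08 to 7.62 in control PASMC, a difference of 1.15 ± 0.17 (2.22-fold, adjusted p = 8.44e-08, limma). Gins2 differed by -0.09 ± 0.12 (adjusted p = 0.539, limma), and whether the 2 subunits differ in their response to cell type was not tested. Cdc45, the third part of the active helicase, lay at 4.69 and 4.38 (means of 8 arrays) and was not called (difference 0.31 ± 0.23).

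Pcna, the sliding clamp of the DNA polymerases, was 0.68 ± 0.11 higher in AECII (adjusted p = 4.35e-07, limma), without overlap between the control groups. Among the enzymes that make deoxynucleotides, the large subunit of ribonucleotide reductase, Rrm1, was 0.57 ± 0.12 higher (adjusted p = 0.000116, limma). The small subunit, Rrm2, differed by 0.24 ± 0.12 and thymidylate synthase, Tyms, by 0.35 ± 0.30, and neither was called.

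The G1 regulators of the list went the other way. E2f1, the transcription factor that drives replication genes, ran from 8.01 over 8.35 to 8.69 in control AECII and from 8.95 over 9.03 to 9.24 in control PASMC. No array overlapped, and the difference was -0.70 ± 0.12 (adjusted p = 1.24e-06, limma). Cyclin E1, Ccne1, which activates Cdk2 at the start of S phase, was lower by the same test (-0.56 ± 0.12, adjusted p = 6.78e-05, limma), with values of 9.06 to 9.82 against 9.64 to 10.19.

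Of the mitosis members, Birc5 (survivin, of the chromosomal passenger complex) stood out. It ran from 11.96 over 12.20 to 12.39 in control AECII and from 11.23 over 11.46 to 11.77 in control PASMC, a difference of 0.72 ± 0.11 (adjusted p = 2.22e-07, limma). It was the only mitosis member without overlap between the control groups.

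The other called mitosis members overlapped. Cdc25c, the phosphatase that activates Cdk1, had values of 4.19, 5.41 and 5.99 in control AECII and 3.06, 4.64 and 5.74 in control PASMC (difference 0.68 ± 0.26, adjusted p = 0.0226, limma). Ccnb2, a mitotic cyclin, had 10.01, 10.17 and 10.58 against 8.89, 9.44 and 10.29 (0.65 ± 0.18, adjusted p = 0.00204, limma). The proliferation marker Mki67 had 10.47, 10.74 and 11.20 against 9.66, 10.19 and 10.83 (0.62 ± 0.18, adjusted p = 0.00263, limma). In each of these 3 genes the highest PASMC array lay above the AECII median, and the lowest lay below every AECII array. The mitotic kinase Plk1 had 10.30, 10.65 and 11.22 against 9.54, 10.05 and 10.95 (0.62 ± 0.19, adjusted p = 0.00365, limma). Aurka, the centrosomal kinase, was 0.48 ± 0.15 higher (adjusted p = 0.00629, limma). Cdc25c lost its call with only the 16 arrays compared in the fit (adjusted p = 0.0934) and in the first 32 arrays deposited (adjusted p = 0.0672, both limma), and also without replicate 2 of the PASMC arrays or replicate 6 of the AECII arrays, where its difference was 0.47 at the lowest. Without the PASMC arrays with Sftpc above 6, Cdc25c (0.61, adjusted p = 0.111) and Plk1 (adjusted p = 0.0549, both limma) lost their calls.

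The other 13 mitosis members were not called. They included the anaphase activator Cdc20 (0.35 ± 0.15, adjusted p = 0.0517, limma), Top2a, the topoisomerase that untangles sister chromatids (0.37 ± 0.21), cyclin A2, Ccna2 (0.22 ± 0.23), and the spindle genes Kif11 (-0.03 ± 0.27) and Tpx2 (-0.16 ± 0.16).

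**Figure D1:**
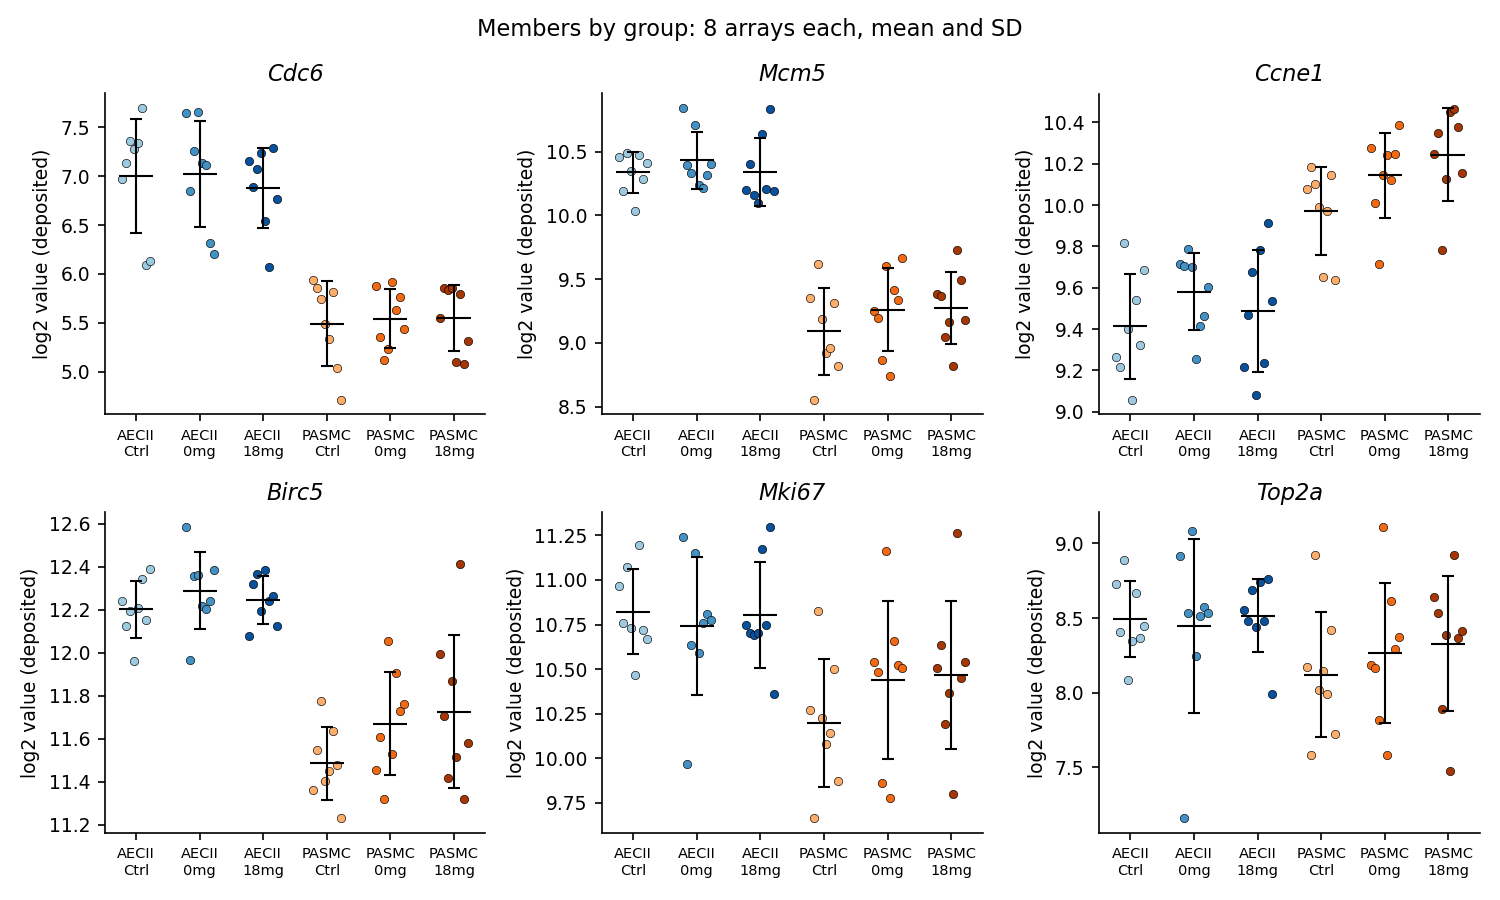
Deposited log2 values of 3 replication members (Cdc6, Mcm5, Ccne1) and 3 mitosis members (Birc5, Mki67, Top2a) in the 6 groups; points are the 8 arrays of a group, the bar is the mean and the whiskers 1 SD. Cdc6 and Mcm5 show no array of PASMC as high as the lowest AECII array, whereas Mki67 and Top2a overlap between the cell types.

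The same comparison in the exposed cells gave the same replication genes. With the 0mg extract 11 replication members were called higher in AECII and 2 lower (median 0.78), where 27.9% of all genes tested were higher and 30.9% lower. Cdc6 (1.48 ± 0.22, adjusted p = 1.37e-07), Mcm5 (1.17 ± 0.14, adjusted p = 4.02e-10), Cdt1 (1.04 ± 0.09, adjusted p = 2.31e-14), Gins1 (1.03 ± 0.17, adjusted p = 8.22e-07) and Mcm2 (0.95 ± 0.11, adjusted p = 2.49e-10, all limma) had the largest differences. Cdc6 (0.66, adjusted p = 0.162), Gins1 (0.94, adjusted p = 0.0767) and Mcm2 (0.71, adjusted p = 0.0581, all limma) lost these calls in the last 16 arrays deposited. There each 0mg group held 2 arrays. With the 18mg extract the counts were 11 and 2 (median 0.69), where 28.0% of all genes were higher and 30.3% lower. There Cdc6 differed by 1.33 ± 0.22 (adjusted p = 1.21e-06), Mcm5 by 1.07 ± 0.14 (adjusted p = 4.37e-09), Cdt1 by 1.04 ± 0.09 (adjusted p = 2.01e-14), Mcm2 by 0.87 ± 0.11 (adjusted p = 3.03e-09) and Mcm6 by 0.85 ± 0.10 (adjusted p = 5.53e-10, all limma). E2f1 and Ccne1 were the members lower in AECII in both (E2f1 -0.63 and -0.66, Ccne1 -0.56 and -0.76). In 7 replication members, namely Cdc6, Cdt1, Mcm2, Mcm3, Mcm4, Mcm5 and Pcna, all 24 AECII arrays lay above all 24 PASMC arrays. No mitosis member did so in either direction. Of all genes tested, 8.08% lay wholly higher in AECII over these arrays and 9.49% wholly lower.

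Fewer mitosis members were called in the exposed cells. With the 0mg extract 4 were higher in AECII and none lower: Birc5 (0.62 ± 0.11, adjusted p = 3.88e-06), Ccnb2 (0.56 ± 0.18, adjusted p = 0.00791), Plk1 (0.52 ± 0.19, adjusted p = 0.0154) and Aurka (0.39 ± 0.15, adjusted p = 0.0276, all limma). That is below the 27.9% of all genes called higher and the 30.9% called lower. The median over the 19 was 0.18. With the 18mg extract 1 was higher and 1 lower: Birc5 by 0.52 ± 0.11 (adjusted p = 6.43e-05) and Tpx2, a spindle assembly factor, by -0.44 ± 0.16 (adjusted p = 0.0165, all limma), and the median was 0.11. Both counts are below the 28.0% and 30.3% of all genes. Whether the cell types differ less under the extract is the interaction given further on, which called no member. The mitosis median moved with single arrays. At 0mg it was 0.08 without replicate 5 of the PASMC arrays and 0.29 without replicate 4, and it also moved by more than 1.5 times without replicate 3 of the PASMC arrays or replicates 1 or 4 of the AECII arrays. At 18mg it was -0.01 without replicate 5 of the PASMC arrays and 0.23 without replicate 6, with values between these without replicates 3, 7 or 8 of the PASMC arrays or replicates 1, 2, 3 or 5 of the AECII arrays. Of the calls, that of Aurka at 0mg was lost without replicate 1 of the AECII arrays or replicates 2, 3 or 5 of the PASMC arrays (lowest difference 0.33), that of Plk1 at 0mg without replicate 5 of the PASMC arrays (0.40), and that of Tpx2 at 18mg without replicate 6 of the PASMC arrays (-0.32). Tpx2 also lost its call when the mean of all its features was used (-0.36, adjusted p = 0.0764), with its second feature (-0.29, adjusted p = 0.412) and in the first 32 arrays deposited (-0.41, adjusted p = 0.112, all limma). Ccnb2, Plk1 and Aurka at 0mg lost theirs without the PASMC arrays with Sftpc above 6 (adjusted p = 0.0669, 0.101 and 0.0913, limma).

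**Figure D2:**
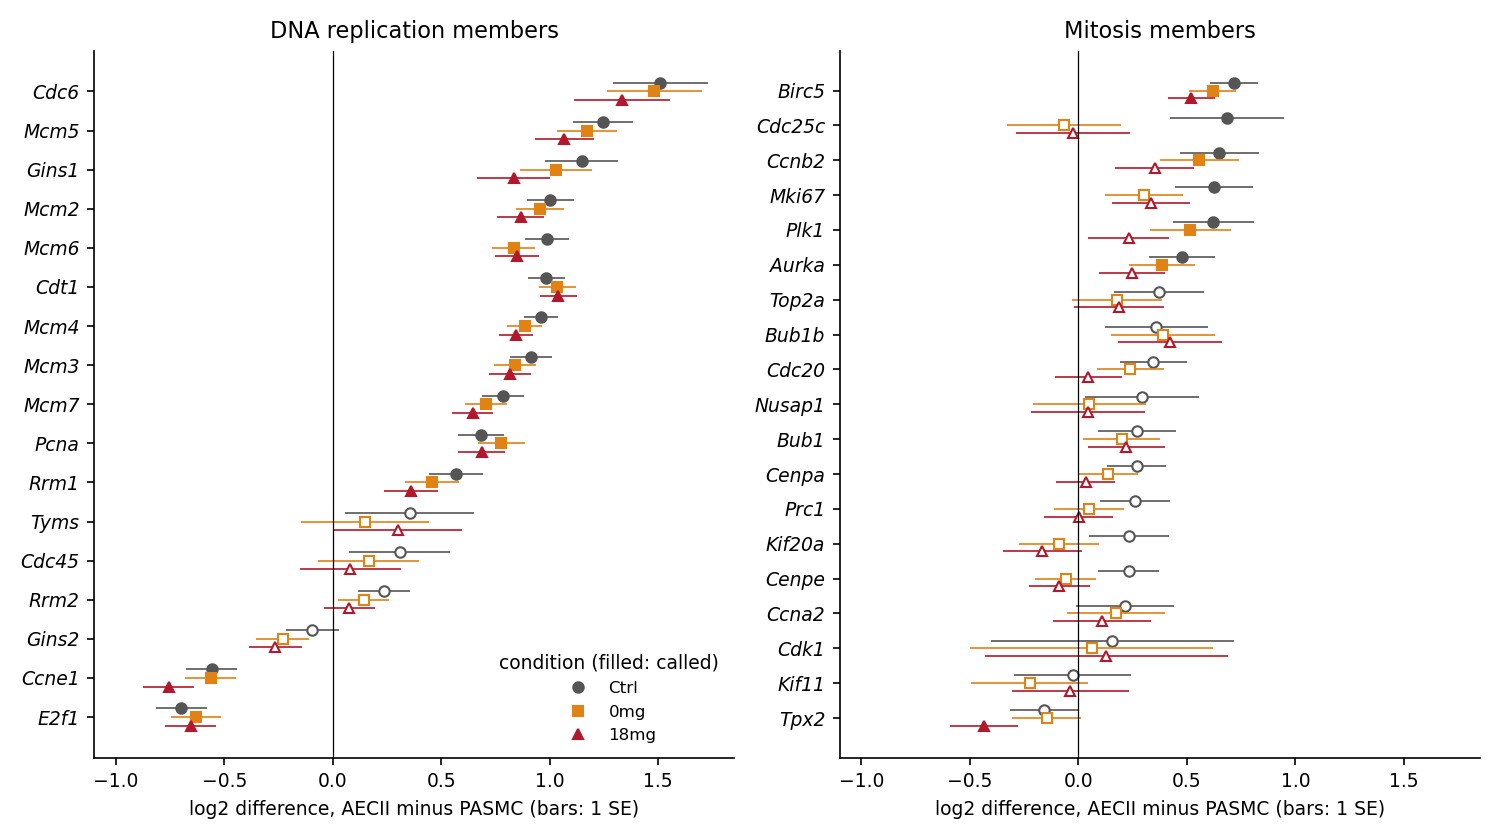
Log2 difference between AECII and PASMC for each of the 17 replication members (left) and 19 mitosis members (right) at Ctrl, 0mg and 18mg, with 1 SE; filled symbols are called at an adjusted p under 0.05. In all 3 conditions 11 replication members lie right of 0 and are filled, and E2f1 and Ccne1 are filled left of it, whereas the mitosis members sit closer to 0.

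Lists of other cell cycle genes were examined in the same way. They were written down from general knowledge, but with earlier results of these data known, so they are no independent check of the members. Of 31 other replication genes tested in the control arrays, 20 were higher in AECII and 2 lower, with a median of 0.45. Across all genes tested, 27.9% were called higher there and 31.3% lower, for this list and the next. Fen1, which processes Okazaki fragments (1.28 ± 0.09, adjusted p = 1.45e-17), the clamp loader subunit Rfc5 (1.00 ± 0.10, adjusted p = 1.48e-11), Uhrf1, which keeps DNA methylation at the fork (1.03 ± 0.11, adjusted p = 2.62e-11), and the primase Prim1 (0.71 ± 0.09, adjusted p = 2.05e-09, all limma) had the smallest p. Of 37 other mitosis genes 17 were higher and 3 lower, with a median of 0.34. They were led by Ect2, the activator of cytokinesis (1.78 ± 0.18, adjusted p = 6.42e-12), Ckap2, a microtubule protein that was lower (-1.65 ± 0.21, adjusted p = 3.30e-09), Cdca8 (0.99 ± 0.14, adjusted p = 3.19e-08) and Kif23 (1.11 ± 0.19, adjusted p = 3.28e-06, all limma).

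Of 30 regulators of the cycle, 8 were higher in AECII and 11 lower, shares near the 27.9% and 31.3% of all genes. As single genes, the D cyclins Ccnd1, Ccnd2 and Ccnd3 and the kinase inhibitors Cdkn1a, Cdkn2a, Cdkn2c and Cdkn2d were among those lower in AECII, and the inhibitor Cdkn1c was among those higher. Cdkn2a, the INK4A and ARF locus, ran from 1.68 over a median of 3.22 to 3.87 in control AECII, close to background, and from 10.19 over 10.48 to 11.30 in control PASMC. The difference was -7.65 ± 0.30 (adjusted p = 1.30e-25, limma). Cdkn1a, the p21 inhibitor, ran from 10.28 over 10.44 to 10.81 against 11.26, 11.81 and 11.90 (-1.27 ± 0.11, adjusted p = 1.16e-13, limma). Cyclin D1, Ccnd1, had 11.54, 11.70 and 11.88 against 12.79, 13.33 and 13.49 (-1.55 ± 0.10, adjusted p = 7.99e-18, limma), and cyclin D2, Ccnd2, was lower by -2.72 ± 0.08 (adjusted p = 4.86e-30, limma). Foxm1, a transcription factor of the mitotic genes, differed by 0.31 ± 0.15 and was not called (adjusted p = 0.061, limma).

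The second question is whether the extract, or the nicotine in its liquid, changed these genes within a cell type. No member was called in any of the 6 comparisons of exposed with control cells or of both extracts. In AECII the share of all 14477 genes called was 0% in each comparison. In PASMC it was 0% for 0mg against Ctrl and for 18mg against 0mg, and 0.0275% for 18mg against Ctrl, which is 4 of 14545 genes, all lower and none a member.

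In AECII the members lay close to their control levels. For 0mg minus Ctrl the median difference was 0.00 over 18 replication members and 0.06 over 19 mitosis members, where that of all genes was 0.01. For 18mg minus Ctrl the medians were -0.01 and 0.02, where that of all genes was 0.01, and for 18mg minus 0mg -0.03 and -0.04, where that of all genes was 0.00. The first of these mitosis medians, 0.06, ran from -0.02 to 0.12 when single arrays were left out (without replicate 1 and without replicate 2 of the 0mg arrays). None of the 37 members reached an unadjusted p under 0.05 in any of the 3, where 480 (3.32%), 341 (2.36%) and 447 (3.09%) of all genes did (limma). The members' median SE was 0.12 in each.

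The readouts of proliferation may be read against that SE. Mki67 had medians of 10.74 (Ctrl), 10.77 (0mg) and 10.73 (18mg), and its differences from control were -0.08 ± 0.15 and -0.02 ± 0.15. Top2a differed by -0.05 ± 0.19 and 0.02 ± 0.19, Pcna by 0.10 ± 0.08 and -0.01 ± 0.08, and Mcm2 by 0.06 ± 0.11 and 0.00 ± 0.11. The groups of all these genes overlapped. Between both extracts, 18mg minus 0mg, Mki67 differed by 0.06 ± 0.15, Top2a by 0.07 ± 0.19, Pcna by -0.11 ± 0.08 and Mcm2 by -0.07 ± 0.11.

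The AECII members with the smallest p were as far from the threshold. For 0mg minus Ctrl they were Ccne1 (0.17 ± 0.12), Pcna and Mcm5 (0.10 ± 0.11) among the replication genes, and Cdc20 (0.17 ± 0.10), Ccna2 (0.19 ± 0.11) and Birc5 (0.09 ± 0.08) among the mitosis genes. For 18mg minus Ctrl they were Mcm3 (-0.07 ± 0.09), Rrm1 (-0.06 ± 0.10) and Ccne1 (0.08 ± 0.12), and Cdk1 (-0.59 ± 0.53), Ccna2 (0.12 ± 0.11) and Kif11 (0.19 ± 0.19). For 18mg minus 0mg they were Pcna, Tyms (0.19 ± 0.22) and Mcm5 (-0.09 ± 0.11), and Cdc20 (-0.14 ± 0.10), Cdk1 (-0.68 ± 0.53) and Plk1 (-0.17 ± 0.14). The adjusted p of every one of these was 0.999 or above (limma).

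In PASMC most members lay above control with either extract, and none was called. The arrays were compared as unmatched, since the labels do not say which arrays of different conditions share a cell preparation. For 0mg minus Ctrl all 19 mitosis members were positive with a median of 0.20, and 15 of 17 replication members with a median of 0.11, where all genes had a median of 0.00 and 51.3% of them were positive. For 18mg minus Ctrl 18 of 19 mitosis members were positive with a median of 0.24, and 14 of 17 replication members with a median of 0.14. There the median of all genes was 0.01 and 51.8% of them were positive. Both comparisons use the same 8 control arrays. The members vary together between arrays, as described below, so these counts are not counts of independent observations. Unadjusted p-values under 0.05 were reached by 1 of 36 members (2.78%) with 0mg and 3 of 36 (8.33%) with 18mg. Of all genes, 402 (2.76%) and 589 (4.05%) did so (limma).

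Single arrays moved these medians by more than 1.5 times. For 0mg the mitosis median, 0.20 over all arrays, was 0.09 without replicate 4 of the 0mg arrays and 0.33 without replicate 3 of the control arrays, and it also moved that far without replicate 5 of the 0mg arrays. The replication median for 0mg was 0.06 without replicate 8 of the control arrays and moved as far without their replicate 2. For 18mg the mitosis median was 0.16 and the replication median 0.07 without replicate 6 of the 18mg arrays.

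Cdc25c had the largest positive difference with both extracts in PASMC: its values of 3.06, 4.64 and 5.74 in control arrays compare with 4.79, 5.09 and 5.83 at 0mg and 4.39, 5.21 and 5.80 at 18mg. The groups overlapped, and the differences were 0.62 ± 0.29 and 0.63 ± 0.29 (adjusted p = 1.00 in both, limma). Cenpe, a kinetochore motor, differed by 0.28 ± 0.14 and 0.33 ± 0.14, and Kif20a, a motor of cytokinesis, by 0.35 ± 0.23 and 0.39 ± 0.23. Birc5 had 0.24 ± 0.13 at 18mg. Among the replication genes the smallest p belonged at 0mg to Ccne1 (0.17 ± 0.11), Mcm7 (0.14 ± 0.10) and Rrm2 (0.17 ± 0.14), and at 18mg to Ccne1 (0.27 ± 0.11), Gins1 (0.36 ± 0.17) and Mcm7 (0.16 ± 0.10).

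Mki67 had medians of 10.19, 10.52 and 10.48 in PASMC at Ctrl, 0mg and 18mg, and its differences from control were 0.24 ± 0.20 and 0.27 ± 0.20. Top2a differed by 0.15 ± 0.22 and 0.21 ± 0.22, Mcm2 by 0.11 ± 0.11 and 0.13 ± 0.11, and Pcna by 0.00 ± 0.13 and -0.01 ± 0.13. In each, the exposed arrays overlapped the control arrays, and 6 of 8 arrays of both extracts lay above the control mean in Mki67 and Top2a.

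Between both extracts in PASMC the medians were 0.02 over replication members and 0.04 over mitosis members, where that of all genes was 0.01. An unadjusted p under 0.05 was reached by 0 of 36 members, where 282 (1.94%) of all genes did (limma). Cdk1 (-0.75 ± 0.57), Tpx2 (0.16 ± 0.17) and Cenpa, the centromeric histone (0.10 ± 0.14), and Gins1 (0.18 ± 0.17), Gins2 (0.11 ± 0.11) and Ccne1 (0.10 ± 0.11) had the smallest p. Mki67 differed by 0.03 ± 0.20, Top2a by 0.06 ± 0.22, Mcm2 by 0.02 ± 0.11 and Pcna by -0.02 ± 0.13.

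The difference of the responses between AECII and PASMC was tested as an interaction, which called 0% of 14775 genes for 0mg and 0% for 18mg, and thus no member. For 0mg the median was -0.07 over replication and -0.11 over mitosis members, and for 18mg -0.14 and -0.25, where all genes had 0.01 and 0.00. Unadjusted p-values under 0.05 were reached by 1 of 36 members (2.78%) for 0mg and 0 for 18mg, where 393 (2.66%) and 382 (2.59%) of all genes did (limma). Single arrays moved these medians too: over leaving out each array, that of the mitosis members for 0mg ran from -0.23 (without replicate 3 of the PASMC control arrays) to -0.04 (without replicate 4 of the PASMC 0mg arrays). For 18mg it ran from -0.35 (without replicate 5 of the PASMC 18mg arrays) to -0.15 (without their replicate 6). That of the replication members for 0mg ran from -0.12 (without replicate 3 of the PASMC 0mg arrays) to -0.05 (without replicate 8 of the PASMC control arrays), and for 18mg from -0.18 (without replicate 3 of the AECII 18mg arrays) to -0.09 (without replicate 8 of the PASMC control arrays). The 1 member with an unadjusted p under 0.05 was Cdc25c (-0.75 ± 0.37), followed by Cenpe (-0.29 ± 0.20) and Mki67 (-0.32 ± 0.25), and among replication genes by Mcm6 (-0.15 ± 0.14), Gins2 (-0.14 ± 0.17) and Mcm4 (-0.07 ± 0.11). For 18mg Cdc25c had -0.71 ± 0.37, Cenpe -0.32 ± 0.20 and Kif20a -0.40 ± 0.26, and Gins1 -0.31 ± 0.24, Ccne1 -0.20 ± 0.17 and Rrm1 -0.21 ± 0.18.

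The other cell cycle genes gave no call under the extract either. In PASMC the transcriptional repressor E2f8 had the smallest p of the regulators with both extracts, at 0.38 ± 0.11 for 0mg (adjusted p = 1.00) and 0.42 ± 0.11 for 18mg (adjusted p = 0.381, limma). Dlgap5, a spindle protein, had the smallest p of the other mitosis genes at 18mg (0.50 ± 0.17, adjusted p = 0.889, limma), and Pole, the leading-strand polymerase, that of the other replication genes (0.23 ± 0.11). Of the other 30 replication, 37 mitosis and 30 regulator genes in AECII, 1, 2 and 0 had an unadjusted p under 0.05 for 0mg against Ctrl and 0, 0 and 1 for 18mg against Ctrl. The shares of all genes tested were 3.32% and 2.36%. Cdkn1a differed from control by 0.03 ± 0.12 and 0.08 ± 0.12 in AECII and by 0.02 ± 0.11 and 0.06 ± 0.11 in PASMC, Ccnd1 by 0.02 ± 0.08 and -0.04 ± 0.08 and by 0.06 ± 0.12 and 0.08 ± 0.12, and Foxm1 by -0.06 ± 0.11 and 0.05 ± 0.11 and by 0.12 ± 0.17 and 0.13 ± 0.17. Cdkn2a differed by 0.61 ± 0.37 and 0.51 ± 0.37 in AECII, where it is close to background, and by 0.09 ± 0.19 and 0.21 ± 0.19 in PASMC.

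The third subject is how far the members spread between arrays that carry the same labels. The mitosis members varied more in PASMC than in AECII, and the 17 replication members varied about as much in both. The SD between arrays of one group, pooled over the 3 groups of a cell type, had a median of 0.45 over mitosis members in PASMC and 0.27 in AECII. For replication members the medians were 0.24 and 0.21. The ratio of the SD in PASMC to that in AECII had a median of 1.64 over mitosis members and 1.04 over replication members, where that of all genes tested was 1.12. It exceeded 1.5 in 11 of 19 mitosis members (57.9%) and 5 of 17 replication members (29.4%), where it did so in 22.5% of all genes tested. The other mitosis genes stood closer to all genes than the mitosis members did, with a median ratio of 1.31 and 11 of 37 (29.7%) above 1.5. The other replication genes had a median ratio of 1.26, with 25 of 31 (80.6%) wider in PASMC and 22.6% above 1.5. Of all genes tested, 62.4% were wider in PASMC. Among the brighter genes, with a mean above 6, 66.7% were wider, the median ratio was 1.17 and 27.3% lay above 1.5.

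Nusap1, which bundles spindle microtubules, had the widest ratio, with an SD of 0.72 in PASMC and 0.24 in AECII, a ratio of 3.05. Ccna2 (2.70), the spindle checkpoint kinase Bub1b (2.63) and Prc1, the organiser of the central spindle (2.40), came next. Cenpa was the mitosis member whose ratio was below 1 (0.98). At the other end of the replication members stood E2f1 (0.68) and Cdc6 (0.70), and at their upper end Pcna (1.95) and Mcm6 (1.81).

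**Figure D3:**
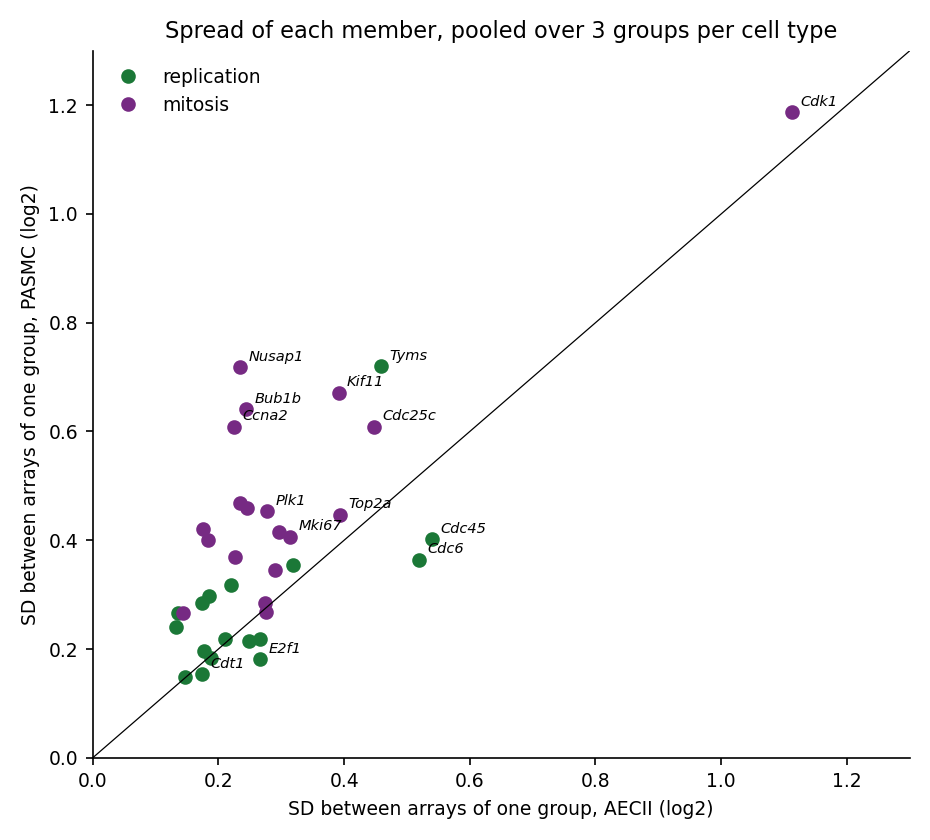
SD between arrays of one group in PASMC against AECII, pooled over the 3 groups of each cell type, for 17 replication members and 19 mitosis members; the line marks equal SD. Of the mitosis members 18 lie above the line, with Nusap1 at 0.24 and 0.72, and Cdk1 stands apart at 1.11 and 1.19. Of all genes tested, which are not drawn, 62.4% had the larger SD in PASMC.

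The mitosis members varied together. After removal of the group means, the mean correlation between pairs of mitosis members was 0.74 over the 24 PASMC arrays and 0.53 over the 24 AECII arrays. Between pairs of replication members it was 0.33 and 0.38, and between a replication and a mitosis member 0.42 in both cell types. Over pairs of all genes tested it was 0.00 in PASMC and 0.01 in AECII. For single genes, the part of the deposition was removed as well as the group means. That split into earlier and later arrays is described below and was chosen after the values were seen. So adjusted, the mean correlation between pairs of mitosis members was 0.81 in PASMC and 0.61 in AECII. Between pairs of replication members it was 0.35 and 0.43, and between both sets 0.45 and 0.49. Prc1 (r = 0.98), Ccna2 (0.98) and Plk1 (0.96) followed the mean of the other mitosis members most closely in PASMC. In AECII, Plk1 (0.92) and Mki67 (0.90) did so. In PASMC, Cdt1 did not follow the other replication members (r = -0.01). These correlations describe 24 arrays that share a normalisation, and the genes are not independent.

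The mean of the 19 mitosis members was taken in each array, relative to each gene's mean over the 48 arrays. In control PASMC it ran from -0.72 over a median of -0.23 to 0.50, in the 0mg arrays from -0.60 over 0.00 to 0.70, and in the 18mg arrays from -0.72 over -0.07 to 0.74. The highest arrays were replicate 3 of Ctrl, replicate 4 of 0mg and replicate 6 of 18mg, and each group also held arrays near its lowest value. The 24 PASMC arrays thus spanned 1.46 on the log2 scale (2.76-fold), and each condition covered most of that span. Marker levels differed between arrays at the 2 ends of this range, and no correlation over the 24 arrays was computed. The 3 highest arrays had smooth muscle marker means of 10.44 (Ctrl), 10.25 (0mg) and 10.46 (18mg), each the lowest of its group, and endothelial marker means of 3.97, 4.18 and 3.83, the lowest of their groups at Ctrl and 18mg and the next to lowest at 0mg. Of the 4 lowest arrays, replicate 2 of Ctrl, replicate 5 of 0mg and replicate 5 of 18mg had fibroblast marker means of 10.00, 10.34 and 10.15, where the other 21 PASMC arrays had 11.18 to 12.02. The remaining low array, replicate 8 of Ctrl, had a fibroblast marker mean of 11.63 and the highest endothelial marker mean, 7.55. Not at either end were the arrays with the highest smooth muscle marker mean of each group (11.8 at Ctrl, 12.0 at 0mg and 12.1 at 18mg). Their mitosis means were -0.22, -0.12 and -0.23. The part of these markers in the spread was not tested. Arrays of like marker levels thus occurred in all 3 conditions, and the labels do not say whether they hold cells of the same mouse. In AECII the mean ran from -0.10 to 0.46 at Ctrl, from -0.22 to 0.56 at 0mg and from -0.15 to 0.32 at 18mg, and the 24 arrays spanned 0.78.

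The mean of the 17 replication members separated the cell types more than the mean of the mitosis members. It lay between 0.06 and 0.56 in AECII and between -0.58 and 0.18 in PASMC. Replicate 6 of the PASMC 18mg arrays, at 0.18, was the only PASMC array above 0, and the next highest lay at -0.15.

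**Figure D4:**
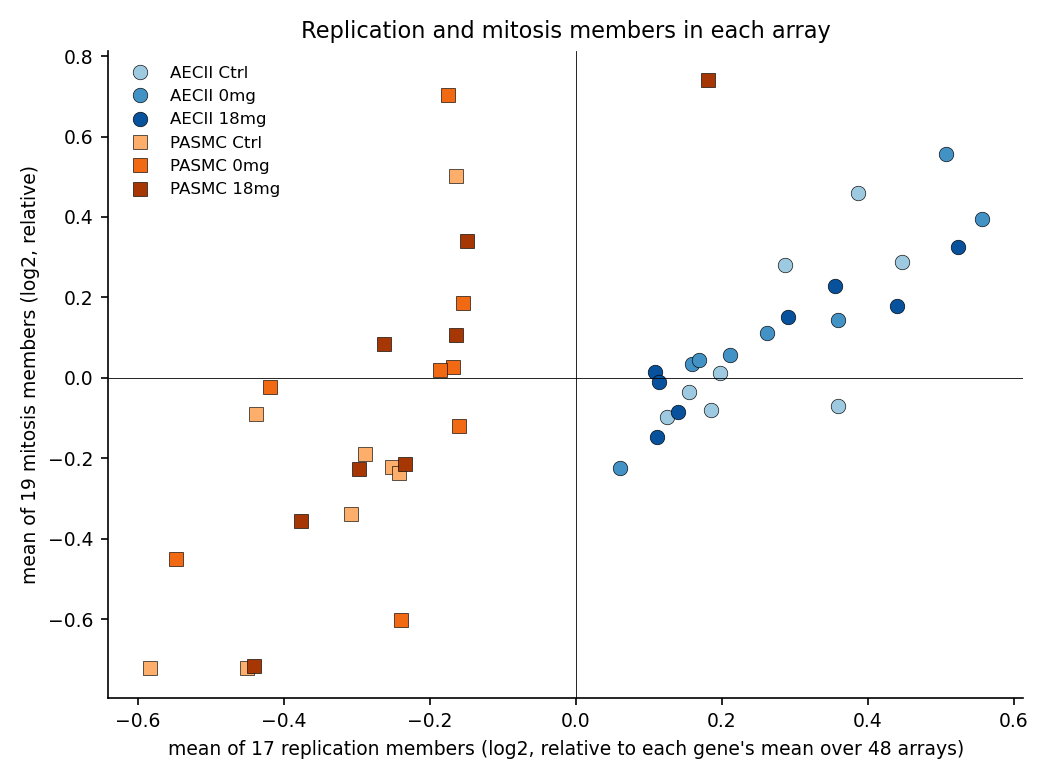
Mean of 17 replication members (x axis) against mean of 19 mitosis members (y axis) in each of the 48 arrays, in log2 units relative to each gene's mean over all arrays; circles are AECII and squares PASMC, shaded by condition. AECII arrays lie to the right at 0.06 to 0.56, and the 24 PASMC arrays stretch along the y axis from -0.72 to 0.74.

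Smooth muscle actin moved against Mki67 across arrays. Chosen after the values were seen, Mki67 was set against Acta2, Sftpc, Marco and Cdkn1a in each cell type, with group means removed and 100000 permutations of arrays within groups, 8 relations in all. In PASMC the correlation with Acta2 was r = -0.76 (permutation p = 5.00e-05, adjusted 0.0004; rho = -0.72, permutation p = 0.00027), and r = -0.69 without the 2 arrays farthest from the median of Acta2. In AECII it was r = -0.67 (permutation p = 0.00054, adjusted 0.00144; rho = -0.65, permutation p = 0.00143), and r = -0.64 without the 2 farthest arrays. It held within the first 32 arrays deposited (r = -0.74 over 16 PASMC arrays and -0.64 over 16 AECII arrays) and within the last 16 (r = -0.85 and -0.72 over 8 arrays each). In AECII, Sftpc also went against Mki67 (r = -0.67, permutation p = 0.00049, adjusted 0.00144; rho = -0.58, permutation p = 0.00399; r = -0.69 without the 2 farthest arrays). The other 5 relations had adjusted permutation p-values of 0.058 to 0.79. The part that a changing mix of cells has in these relations was not tested. The permutations treated all arrays of a cell type as unrelated. The labels do not say which arrays share a mouse, and where arrays share cells these p-values are too small. For the same reason the first 32 and the last 16 arrays may not be independent of each other.

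The Acta2 values come close to the top of the scale in PASMC, at 14.33 to 15.46 where the highest value of any feature is 15.89. The PASMC array with the highest Mki67, replicate 6 of 18mg at 11.26, had the lowest Acta2 (14.33), and the array with the lowest Mki67, replicate 2 of Ctrl at 9.66, had 15.38. Their Marco levels were 7.94 and 7.99, and their Sftpc levels 2.50 and 1.72. Their other marker levels were not alike: the mean of the fibroblast markers was 11.79 in the first and 10.00 in the second, that of the endothelial markers 3.83 and 5.64, and that of the smooth muscle markers 10.46 and 11.59.

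Cdk1, the kinase that drives entry into mitosis, behaved unlike the other members. Its feature stood at 7.56 to 8.62 in the first 32 arrays in the order of deposition and at 5.03 to 6.69 in the last 16, with no overlap. With group in the fit the difference of the last 16 from the first 32 was -2.24 ± 0.11 (adjusted p = 1.15e-20, limma). Cdc6 was the other member called, at -0.62 ± 0.11 (adjusted p = 3.34e-05, limma), and no member was called higher, where 7.29% of all genes tested were called higher and 4.24% lower. A difference beyond -1 was found in 78 of all genes, and beyond 1 in none. The split was chosen after the values were seen, and the labels do not say what changed at that point.

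The 2 other features of Cdk1 were near background, with medians of 3.13 and 2.95 and of 2.22 and 2.13 in the first 32 and last 16 arrays. The third feature of Birc5 dropped from 6.72 to 8.46 in the first 32 arrays to 5.50 to 6.90 in the last 16, whereas the brightest feature of Birc5, which represents it here, had medians of 11.98 and 12.14. Mki67, read by its brightest feature, had medians of 10.63 and 10.60.

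The last 16 arrays held 4 of the 8 arrays of each 18mg group and 2 of the 8 of each other group, so the difference enters Cdk1 wherever 18mg is compared. The differences of Cdk1 were -0.59 ± 0.53 (18mg minus Ctrl) and 0.09 ± 0.53 (0mg minus Ctrl) in AECII and -0.56 ± 0.57 and 0.19 ± 0.57 in PASMC. With the part of the deposition as a block, the PASMC difference of 18mg from Ctrl was 0.01. Without Cdk1, the mean of the mitosis members ran from -0.80 to 0.83 over the PASMC arrays and from -0.26 to 0.53 over the AECII arrays.

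**Figure D5:**
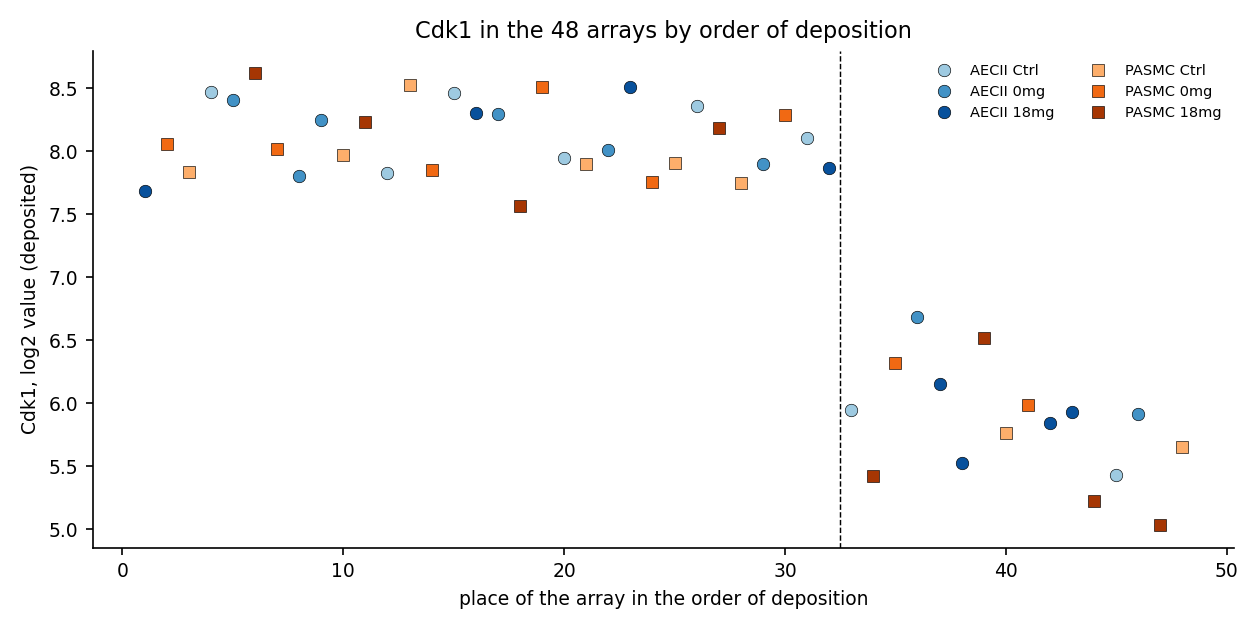
Deposited log2 value of Cdk1 in the 48 arrays, placed by their order of deposition; circles are AECII and squares PASMC, and the dashed line separates the first 32 arrays from the last 16. All arrays left of the line lie at 7.56 or above and all arrays right of it at 6.69 or below, in every group.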

How the data were processed

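RNA was labelled with Cy3 (Agilent Low-Input QuickAmp) and hybridised to single-colour arrays. The values used are the authors' deposited log2 values, already normalised between arrays, and limma is named in the submitters' processing notes without a version. The columns matched the 48 samples one to one. Features were named through the platform annotation, updated by RefSeq accession, and each gene took its feature with the highest mean; 8 members had several. Genes with a mean above log2 2.73 (the 30th percentile of named features) over the arrays of a fit were tested with lmFit and eBayes (limma 3.58.1, R 4.3.3) and adjusted by Benjamini-Hochberg over all genes tested. Comparisons between cell types used 1 fit of 48 arrays, and comparisons within a cell type a fit of its 24 arrays. The test was checked on simulated data.

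The members and lists were chosen with earlier results of these data known. Full statistics were given for the 5 called replication and the 5 called mitosis members with the largest differences, or, without calls, for the 3 of each lowest in p, and in treatment comparisons always for Mki67, Top2a, Pcna, Mcm2 and Cdk1; other genes named were chosen after their values were seen or by smallest p within their list. The marker and pathway lists were written from general knowledge. Alternatives covered blocks, filters, normalisation, arrays in the fit, moderation, array weights, feature choice and single arrays left out. Arrays limit the precision by their number. Slides are not given in the sources used here.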

Additional observations from a re-analysis of the deposited data

Results flagged for a closer look

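In 14 of 228 groups of 8 arrays examined (each member tested and the array means), the highest or lowest array stood apart by a larger share of the group's range than Dixon's criterion at 95% allows. Chance gives about 1 in 20 such groups, which is 11.4 here. The value given is the gap to the nearest array divided by the range.

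Replicate 6 of the PASMC 18mg arrays was the highest array in Gins1 (0.851, 8.17 against the next highest 7.32), Mcm2 (0.621), Mcm6 (0.603), Cdc20 (0.543) and in the mean of the replication members (0.530). Replicate 3 of the PASMC control arrays was the highest in Cdc20 (0.617), Prc1 (0.580) and Bub1 (0.562). In AECII, replicate 7 of the 18mg arrays was the highest in Ccnb2 (0.625) and Prc1 (0.550), replicate 6 of the control arrays in Ccnb2 (0.576) and replicate 4 of the 0mg arrays in E2f1 (0.547). Top2a had a low array in AECII, replicate 2 at 0mg (0.564, 7.16 against the next lowest 8.25) and replicate 8 at 18mg (0.580). Members that vary together are flagged together, so these groups are not independent.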

How the results depend on the processing

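Among 16 alternatives besides leaving out single arrays, the number of members called stayed within 1.5 times its value in all comparisons but AECII against PASMC in the last 16 arrays deposited, where 11 members were called at Ctrl and 7 at 0mg; those groups held 2 arrays each. Of the members given with full statistics, Ccnb2, Cdc25c, Mki67 and Plk1 lost their calls there at Ctrl. At 0mg Cdc6, Gins1, Mcm2, Birc5, Ccnb2, Plk1 and Aurka did so, and at 18mg Tpx2. Over leaving out each array in turn, 18 to 23 members were called at Ctrl, 15 to 19 at 0mg and 15 to 17 at 18mg, and none in a treatment comparison. The median of the replication members changed by more than its spread only in the last 16 arrays, and that of the mitosis members in no alternative. The spread was the SD of the array means in a group, averaged over the groups compared. For mitosis members this SD was 0.39, 0.40 and 0.45 in PASMC at Ctrl, 0mg and 18mg. It exceeds the mitosis medians of 0.20 (0mg minus Ctrl) and 0.24 (18mg minus Ctrl) there. A median could thus vanish unmarked, and this rule cannot show that the mitosis medians were stable. When single arrays were left out, the number of all genes called for 18mg against Ctrl in PASMC ran from 1 to 6. Same-numbered arrays did not all deviate together (the lowest correlation was -0.40, for 18mg against Ctrl in PASMC), so the replicate number was not taken as a pairing. With a replicate block, 19, 17 and 15 members were called between the cell types and 0 in each treatment comparison, as without it, and no gene for 18mg against Ctrl in PASMC.

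No treatment difference of a named member was called under any alternative. Of 73 uncalled values, 28 changed sign under some alternative. A value that did so under several is counted in each, which gives 44 sign changes, and the cause was not tested. With the second feature of a gene, Ccne1 became -0.16 (0mg minus Ctrl) and -0.19 (18mg minus Ctrl) and Cdk1 0.36 (18mg minus Ctrl) in AECII, and Cdk1 became -0.076 (0mg minus Ctrl) and Mki67 -0.046 (18mg minus 0mg) in PASMC. With the mean of all features, Ccne1 became -0.055 (AECII, 18mg minus Ctrl) and Mki67 -0.0077 (PASMC, 18mg minus 0mg). In the first 32 arrays, values became -0.022 for Ccne1 (18mg minus Ctrl), -0.084 for Cdk1 (0mg minus Ctrl) and -0.013 for Mki67 (18mg minus 0mg) in AECII; 0.072 for Cdk1, -0.042 for Mcm2 and 0.044 for Pcna (18mg minus 0mg), 0.17 for Cdk1 (18mg minus Ctrl) and -0.10 for Pcna (0mg minus Ctrl) in PASMC; and 0.012 for Mcm4 in the difference of 0mg responses. In the last 16 arrays, AECII gave Cdk1 0.18, Mcm2 0.012, Mcm3 0.0056 and Mki67 0.20 (18mg minus Ctrl), Mcm2 -0.18, Mki67 0.099, Pcna -0.084 and Top2a 0.15 (0mg minus Ctrl), and Mcm2 0.19, Mcm5 0.11, Pcna 0.082, Top2a -0.062 and Tyms -0.27 (18mg minus 0mg). There PASMC gave Cenpa -0.072, Mki67 -0.0039 and Top2a -0.038 (18mg minus 0mg) and Pcna 0.13 (18mg minus Ctrl). With array weights, Cdk1 became -0.14 (AECII, 0mg minus Ctrl), and in PASMC Mcm2 -0.015 and Pcna 0.014 (18mg minus 0mg), and Pcna -0.013 (0mg minus Ctrl) and 0.0014 (18mg minus Ctrl). Without the PASMC arrays with Sftpc above 6, Cdk1 became -0.38 and Pcna -0.029 (0mg minus Ctrl). With runs of 8 arrays in order of deposition as a block, Cdk1 became 0.026 (PASMC) and Mcm2 0.019 (AECII), and with the first 32 and last 16 arrays as a block 0.013 and 0.023 (all 18mg minus Ctrl). The deposition and Sftpc alternatives were chosen after seeing the data.

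Leaving out single arrays also turned the sign of uncalled values. In AECII the ranges were -0.15 to 0.030 for Mki67, -0.14 to 0.14 for Top2a and -0.22 to 0.34 for Cdk1 (0mg minus Ctrl), -0.089 to 0.045 for Mki67, -0.033 to 0.099 for Top2a, -0.033 to 0.021 for Pcna and -0.050 to 0.040 for Mcm2 (18mg minus Ctrl), and -0.048 to 0.13 for Mki67 and -0.11 to 0.16 for Top2a (18mg minus 0mg). In PASMC they were -0.056 to 0.058 for Pcna and -0.067 to 0.42 for Cdk1 (0mg minus Ctrl), -0.077 to 0.046 for Pcna (18mg minus Ctrl), and -0.083 to 0.13 for Mki67, -0.039 to 0.18 for Top2a, -0.081 to 0.042 for Pcna and -0.044 to 0.052 for Mcm2 (18mg minus 0mg). Features near background limit Aurkb, Cenpf and Ccne2, which have no test between the cell types.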
